A study of Danio rerio with 18 samples.

Results

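The mRNAs of 6 genes that hold the egg in meiosis or control its entry into mitosis were followed through early zebrafish development, on and off polysomes. They are MOS (ENSDARG00000069744.5), fbxo43 (ENSDARG00000104186.1), CCNB1 (ENSDARG00000051923.7), CCNB2 (ENSDARG00000036180.4), CDK1 (ENSDARG00000087554.2) and WEE2 (ENSDARG00000012718.11). They were chosen by name for their roles, with earlier results of these data known. Each matched 1 of the 27015 genes in the deposited table. The study pooled wild-type (AB) embryos at 6 stages, namely eggs, embryos of 1, 16 and 128 cells, and embryos at 3.5 and 5.3 hours post fertilization (hpf). At each stage it sequenced rRNA-depleted RNA from polysomes, RNA free of polysomes, and unfractionated RNA. These are called bound, unbound and unfractionated below. Each of the 18 combinations was 1 library with no replicate, and no treatment, transgene or mutation is given in the labels.

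A vertebrate egg waits in metaphase of the second meiotic division until it is fertilized. The arrest needs high activity of the kinase CDK1 bound to a B-type cyclin, a pair known as maturation-promoting factor. The kinase Mos, acting through the MAP kinase cascade, and the protein that fbxo43 encodes, known in Xenopus as Emi2 or Erp1, keep the anaphase-promoting complex (APC/C) from marking cyclin B for destruction. Wee kinases, of which WEE2 is the oocyte form, add an inhibitory phosphate to CDK1. After fertilization the same cyclins and CDK1 drive the rapid cleavage divisions, which run on maternal mRNA until the embryo's own genome is switched on.

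The libraries held 30.67 M to 71.65 M reads assigned to transcripts. Levels are given as the authors' normalized counts per gene, which are scaled per library. A level is thus relative and not an amount per embryo. The normalized counts of a library summed to 41.06 M to 77.13 M, so a level is not a share of its library either. A ratio of bound to unbound is likewise relative, and does not give the part of an mRNA that was on polysomes. Whether fewer cells hold an mRNA or each cell holds less of it cannot be told apart in pooled embryos. Of the 36 unfractionated values of the 6 genes, 28 lay between the bound and unbound values of the same stage and 8 lay outside them, so the fractions do not add up to the unfractionated level on this scale. In the unfractionated libraries, 6 egg and oocyte markers summed to 71959 and 20386 normalized counts at 3.5 and 5.3 hpf, against 133241 to 168514 at the first 4 stages. The sums for 7 genes of the embryo after genome activation were 39512 and 113393, against 295 to 625. The sums for 5 markers of ovarian follicle cells were 810 and 607, against 185 to 260, and those for 4 blood markers were 310 and 310, against 25 to 51. Of the blood markers, gata1a made up most of the late sums (279.1 and 255.1), and the globin hbae1.1 was listed at 0 except at 5.3 hpf (1.0). Of the follicle cell markers, lhcgr was the highest late (439.8 and 212.8, against 3.3 to 44.9 early). STAR had 62.4 and 30.9 late, against 31.4 to 43.1 early. The part of such cells in the results was not tested.

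**Figure D1:**
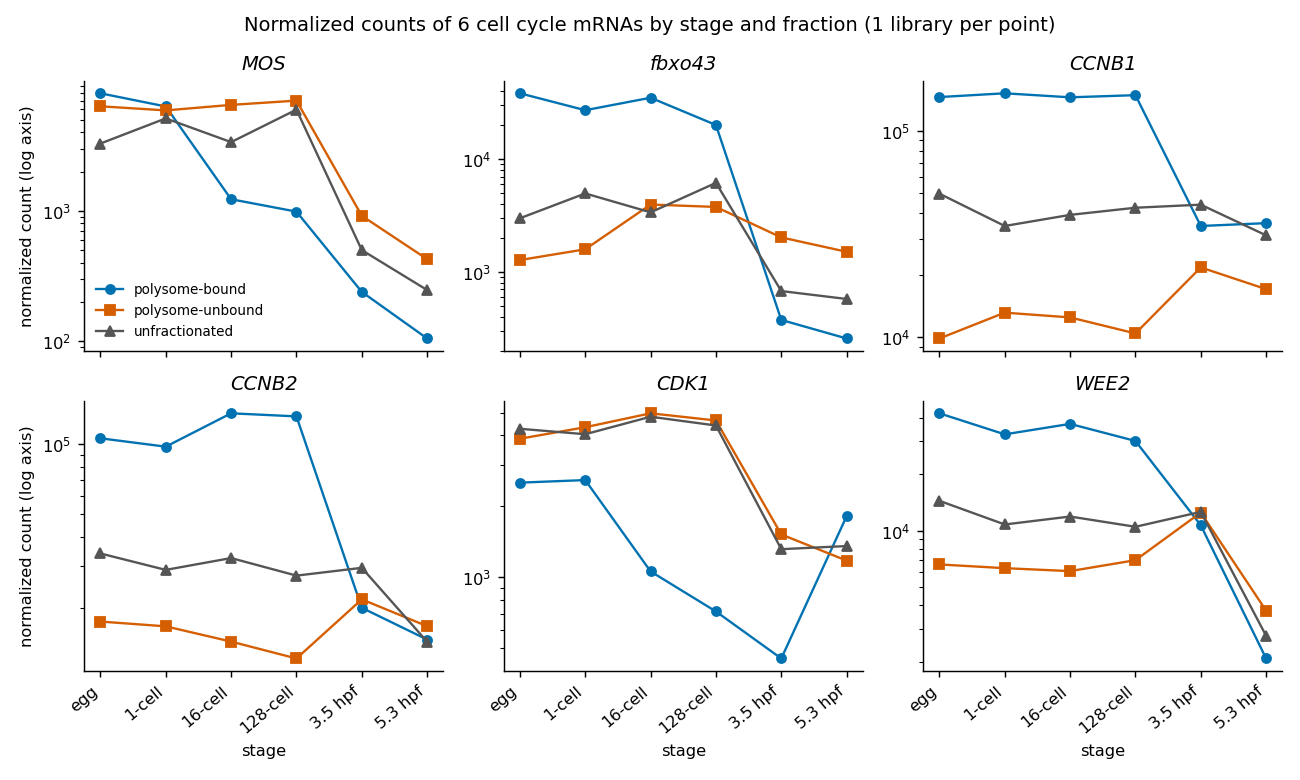
Normalized counts on a log axis by stage, with 1 panel per gene and 1 library per point, for the polysome-bound, polysome-unbound and unfractionated RNA. The bound MOS and CDK1 values drop between the 1-cell and 16-cell stages, and those of fbxo43, CCNB1, CCNB2 and WEE2 between the 128-cell stage and 3.5 hpf. Bound MOS drops again, 4.12-fold, at that later step. Bound WEE2 drops 2.81-fold there and 5.12-fold from 3.5 to 5.3 hpf.

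MOS, the kinase of the meiotic arrest, had a much lower bound level at 16 cells than in the egg. Its bound level was 7965 normalized counts in the egg, 6311 at 1 cell, 1227 at 16 cells, 986 at 128 cells, 239 at 3.5 hpf and 105 at 5.3 hpf. In the unbound RNA it was 6332, 5888, 6491, 6998, 916 and 426 at the same stages. The unbound level thus stayed within a narrow range through 128 cells while the bound level had already dropped at 16 cells. The ratio of bound to unbound was 1.26 in the egg and 1.07 at 1 cell, then 0.189 at 16 cells, 0.141 at 128 cells, 0.261 at 3.5 hpf and 0.249 at 5.3 hpf. All 4 values from 16 cells on lay below both earlier ones, at 11.2% to 20.8% of the egg ratio. The unfractionated MOS level was 3280, 5114, 3364, 5968, 500 and 247 normalized counts over the 6 stages. Total MOS RNA at 128 cells was therefore not below that of the egg. Its drop came at 3.5 hpf, 11.9-fold below 128 cells, its highest value, and to 15.3% of the egg value.

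The ratio of MOS at 16 cells was 5.67-fold below that at 1 cell, among the lowest 1.49% of the 13114 genes that had at least 100 normalized counts in all 3 egg libraries. MOS and CDK1 were the 2 of the 6 genes whose ratio dropped at least 2-fold at that step, which 12.4% of those genes did. A step between stages compares 1 library with 1 library for each fraction, so it has no test. The deposited transcript estimates hold MOS as a single transcript of 1210 nucleotides, at 24.58 TPM, a share of all transcripts corrected for their length, in the bound RNA at 16 cells, against 145.84 TPM at 1 cell, and at 228.64 TPM in the unbound RNA at 16 cells, against 200.09 TPM at 1 cell.

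fbxo43, whose protein holds the APC/C inactive, had the widest range of the 6 genes on polysomes. Its bound level was 38441 normalized counts in the egg, 27203 at 1 cell, 35104 at 16 cells, 20111 at 128 cells, 374 at 3.5 hpf and 256 at 5.3 hpf. The first 4 values stood far above the last 2, and the single step from 128 cells to 3.5 hpf was 53.7-fold, among the lowest 0.236% of the 13114 genes. In the unbound RNA it was 1272, 1585, 3956, 3767, 2021 and 1506 normalized counts. The ratio of bound to unbound was 30.2 in the egg, 17.1 at 1 cell, 8.87 at 16 cells, 5.34 at 128 cells, 0.185 at 3.5 hpf and 0.171 at 5.3 hpf. With the authors' scaling it was thus lower at each stage than at the one before. The unfractionated level was 2988, 4963, 3372, 6160, 675 and 574 normalized counts, with both late values below all 4 early ones. The drop of total fbxo43 RNA from 128 cells, its highest value, to 3.5 hpf was 9.12-fold, to 22.6% of the egg value. The drops of MOS and fbxo43 at that step lay among the lowest 0.137% and 0.221% of the 13114 genes. Total MOS and fbxo43 RNA rose and fell at the same early steps, and whether this came from the libraries was not tested.

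With the authors' scaling, the bound levels of the cyclins stayed high throughout cleavage. CCNB1, a B-type cyclin, had bound levels of 145812, 152087, 145403 and 148941 normalized counts at the first 4 stages, 34610 at 3.5 hpf and 35725 at 5.3 hpf. The 4 early values lay close together and both late ones lay below them. In the unbound RNA it had 9867, 13163, 12481 and 10438 normalized counts, then 21802 and 17107, so the late unbound values stood above all 4 early ones while the late bound values stood below. CCNB1 was the only one of the 6 genes whose 6 bound values all exceeded its 6 unbound values, 1 of 6 against 3.96% of 24893 genes. Its ratio was 11.6 to 14.8 at the first 4 stages, 1.59 at 3.5 hpf and 2.09 at 5.3 hpf. Total CCNB1 RNA was 49639, 34613, 39177, 42429, 43903 and 31182 normalized counts, with the value at 3.5 hpf inside the early range and that at 5.3 hpf just below it.

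CCNB2, the other B-type cyclin among the 6 genes, followed the same course with a gain during cleavage. Its bound level was 105883, 97497, 135422, 131376, 19951 and 14591 normalized counts over the 6 stages. Its unbound level was 17423, 16621, 14303, 12110, 21678 and 16644. Bound and unbound values therefore came close to each other at the last 2 stages, where they had been several fold apart before. The ratio was 6.08 in the egg, 5.87 at 1 cell, 9.47 at 16 cells, 10.8 at 128 cells, 0.920 at 3.5 hpf and 0.877 at 5.3 hpf. The unfractionated level was 34066, 28975, 32559, 27388 and 29572 through 3.5 hpf and 14286 at 5.3 hpf, so total CCNB2 RNA dropped 1 stage after its polysome association.

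WEE2, the oocyte kinase that restrains CDK1, was also high on polysomes through 128 cells. Its bound level was 42121, 32539, 36993, 30003, 10671 and 2082 normalized counts. Its unbound level was 6599, 6304, 6080, 6953, 12466 and 3744, highest at 3.5 hpf. The ratio was 6.38, 5.16, 6.08 and 4.31 at the first 4 stages, 0.856 at 3.5 hpf and 0.556 at 5.3 hpf. Its unfractionated level was 14400, 10772, 11877, 10471 and 12576 through 3.5 hpf and 2750 at 5.3 hpf, a 4.57-fold drop at the last step.

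CDK1, the kinase itself, had a course unlike that of its cyclins. Its bound level was 2522 normalized counts in the egg, 2586 at 1 cell, 1060 at 16 cells, 717 at 128 cells, 453 at 3.5 hpf and 1818 at 5.3 hpf. Its unbound level was 3872, 4332, 4963, 4627, 1521 and 1178. The bound level was below the unbound one at every stage except 5.3 hpf. The ratio was 0.652, 0.597, 0.214, 0.155, 0.298 and 1.54, with a 5.17-fold gain at the last step. The unfractionated level was 4267, 4046, 4800 and 4406 at the first 4 stages, 1317 at 3.5 hpf and 1358 at 5.3 hpf. Bound CDK1 was thus 4.01-fold higher at 5.3 hpf than at 3.5 hpf, while total CDK1 RNA differed by 1.03-fold.

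Levels could be compared per length for 3 genes, since MOS, CCNB2 and CDK1 each matched 1 transcript within 1% in all 18 libraries. In the unfractionated egg, CCNB2 stood at 812.91 TPM, CDK1 at 122.43 TPM and MOS at 108.76 TPM. At 5.3 hpf CCNB2 stood at 282.65 TPM, CDK1 at 32.31 TPM and MOS at 6.79 TPM. The order of CCNB2 over MOS and CDK1 held at all 6 stages, while MOS was above CDK1 at 1 cell and 128 cells only.

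Which mRNAs lost polysome association before total RNA was read from the first stage at or below 0.5 times the egg value, provided that all later stages stayed there. For MOS the ratio of bound to unbound passed that mark at 16 cells and total RNA at 3.5 hpf. For fbxo43 these were again 16 cells for the ratio and 3.5 hpf for total RNA. Its bound level itself passed the mark only at 3.5 hpf, and at 16 cells it was 91.3% of the egg value. The unbound level of fbxo43 at 16 cells was 311% of the egg value. With 1 cell as the baseline, the ratio of fbxo43 passed the mark at 128 cells. For CCNB2 and WEE2 the ratio passed it at 3.5 hpf and total RNA at 5.3 hpf. The ratio of CCNB1 passed the mark at 3.5 hpf, and its total RNA did not pass the mark by 5.3 hpf. CDK1 had a ratio at or below the mark at 16 cells, 128 cells and 3.5 hpf but was above it at 5.3 hpf, so it counts as not lost, while its total RNA passed at 3.5 hpf.

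**Figure D2:**
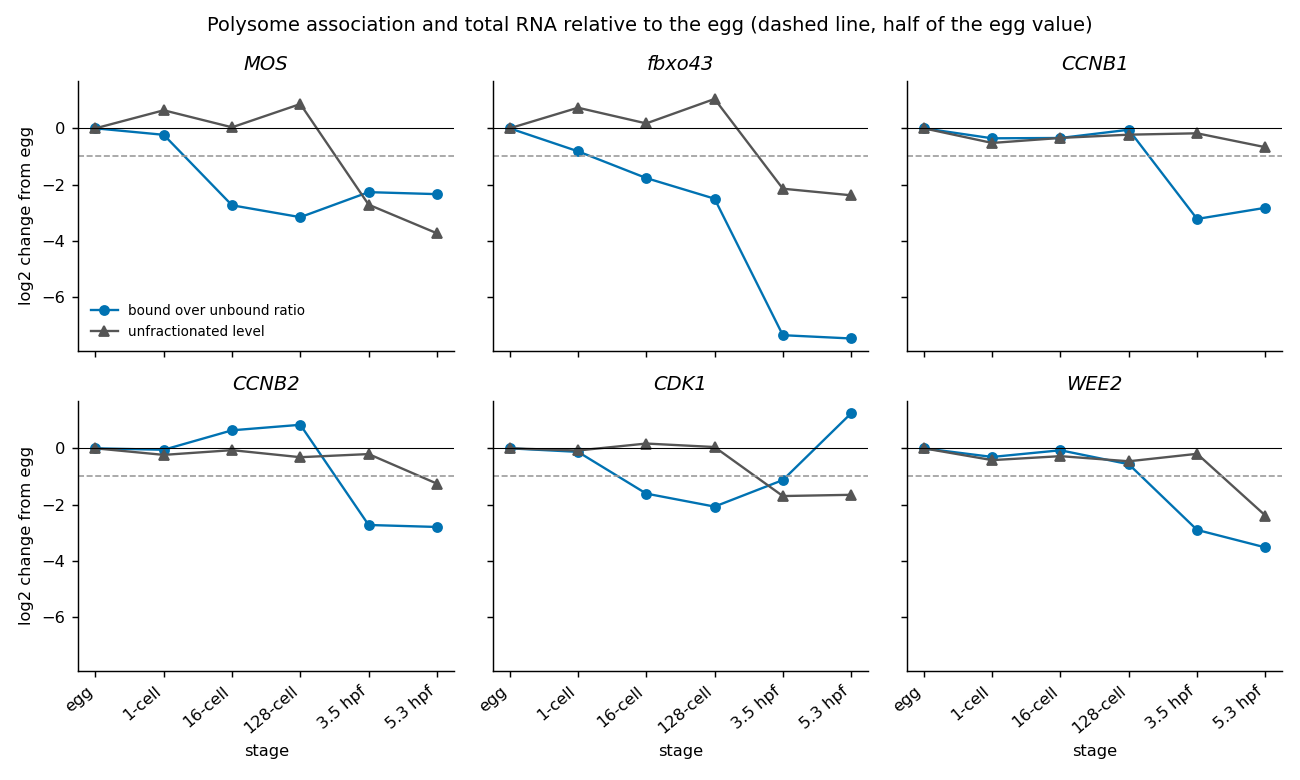
Change from the egg (log2) of the bound over unbound ratio and of the unfractionated level by stage, with 1 panel per gene. The dashed line marks 0.5 times the egg value, which the ratio crosses before the unfractionated level for MOS, fbxo43, CCNB2, CDK1 and WEE2. For CCNB1 only the ratio crosses it, and the ratio of CDK1 returns above it at 5.3 hpf.

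The ratio was thus lost at an earlier stage than total RNA in 5 of the 6 genes, against 26.5% of 13114 genes. The bound level was lost earlier than total RNA in 4 of 6, against 27.3% of genes, with MOS, CCNB1, CCNB2 and WEE2 earlier, fbxo43 at the same stage and CDK1 not lost. At the step from 128 cells to 3.5 hpf the ratio of 4 of 6 genes dropped at least 2-fold, against 27.2% of genes. The drops were 28.8-fold for fbxo43, 11.8-fold for CCNB2, 8.99-fold for CCNB1 and 5.04-fold for WEE2. Total RNA dropped at least 2-fold at that step for MOS, fbxo43 and CDK1, 3 of 6 genes against 16.8%, and at the next step for MOS, CCNB2 and WEE2, 3 of 6 against 23.0%. These orders have no test, and the 6 genes were chosen with earlier results of these data known. The ratio was also scaled to 4 control-like sequences that are present in the bound and unbound libraries, while total RNA kept the authors' scaling. It was then lost before total RNA in 2 of 6 genes, fbxo43 and WEE2, against 3.18% of 13114 genes. At 5.3 hpf the scaled ratio was back at 72.1% of its egg value for MOS, 51.5% for CCNB1 and 52.6% for CCNB2. For fbxo43 it was 22.8% at 16 cells, 23.8% at 128 cells, 0.624% at 3.5 hpf and 2.06% at 5.3 hpf. With only the bound level rescaled, it was lost before total RNA in 4 of 6, against 20.7% of genes. Whether equal amounts of these sequences went into each fraction is not given in the sources used here.

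Late stages (3.5 and 5.3 hpf) were then set against the 4 early stages with limma across all genes, which measures each change against the spread between stages since no stage has a replicate. The ratio of bound to unbound fell in 4 of the 6 genes, and 5.39% of 24893 genes were called lower. fbxo43 was 70.3-fold lower (log2 −6.14 ± 0.61 SE, adjusted p 0.00452), placing 32nd from the bottom. CCNB2 was 8.66-fold lower (−3.11 ± 0.46, adjusted p 0.00771), WEE2 7.86-fold (−2.97 ± 0.38, adjusted p 0.00618) and CCNB1 7.13-fold (−2.83 ± 0.43, adjusted p 0.00834). The log2 change was −0.77 ± 0.86 for MOS (adjusted p 0.632) and 1.01 ± 0.76 for CDK1 (adjusted p 0.458), whose ratios were already low at 16 and 128 cells. The median of all genes was −0.51, and relative to it the value was −5.63 for fbxo43, −2.60 for CCNB2, −2.46 for WEE2 and −2.32 for CCNB1. Without 3.5 hpf none of the 4 passed (adjusted p 0.0529 to 0.0641), nor when the ratio was formed within each stage first (adjusted p 0.0848 for each), although all 4 had an unadjusted p below 0.05 both times and 0 genes of the whole table passed in either fit, and with the control-like sequences only fbxo43 did (adjusted p 0.00286). On that scale the value of MOS turned to 0.36 and the median of all genes to 0.50, and 315 genes were called higher and 29 lower, against 587 and 1342 with the authors' scaling, 859 and 891 with library totals, 838 and 895 with median centring and 895 and 831 with TMM.

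**Figure D3:**
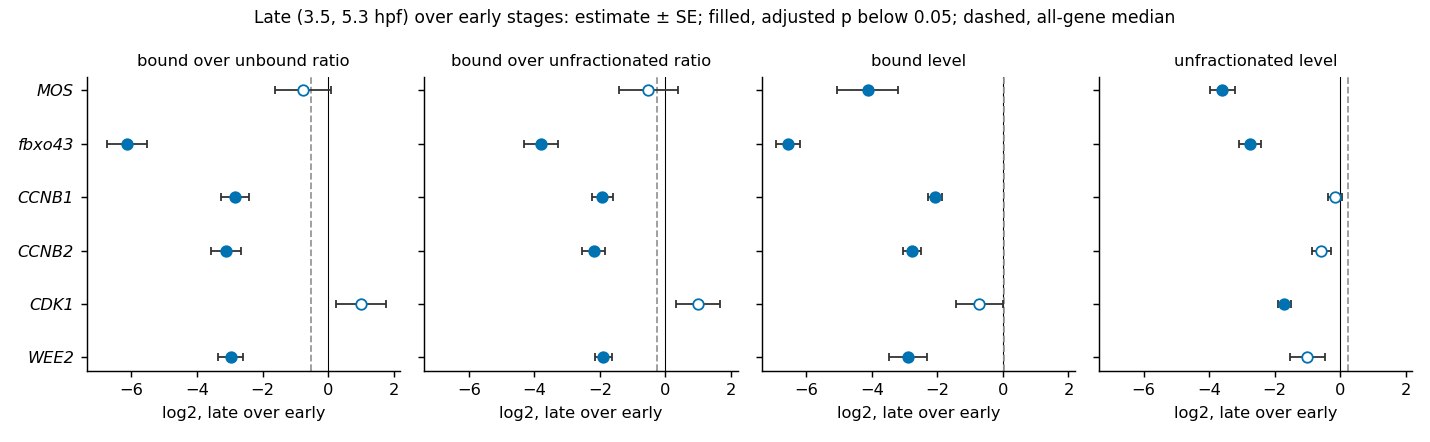
Log2 change of late (3.5 and 5.3 hpf) over early stages for the bound over unbound ratio, the bound over unfractionated ratio, the bound level and the unfractionated level, with standard errors of limma. Filled points passed an adjusted p of 0.05, and the dashed line is the median of all genes tested. In both ratios the 4 filled points are fbxo43, CCNB1, CCNB2 and WEE2.

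The bound level itself was lower late than early in 5 of the 6 genes, where 14.4% of 23321 genes were called lower. fbxo43 had 256 and 374 normalized counts late against 20111 to 38441 early, a 94.4-fold drop (−6.56 ± 0.37, adjusted p 0.000613), the 3rd lowest value of all genes. MOS was 17.5-fold lower (−4.13 ± 0.92, adjusted p 0.0127), WEE2 7.45-fold (−2.90 ± 0.58), CCNB2 6.82-fold (−2.77 ± 0.28) and CCNB1 4.21-fold (−2.07 ± 0.22). CDK1 had 453 and 1818 late against 717 to 2586 early, and its groups overlapped (−0.72 ± 0.72, adjusted p 0.476). The call for MOS ended without 5.3 hpf (adjusted p 0.075), and that for CCNB1 with the control-like sequences (adjusted p 0.0673). Over all genes 4129 were called higher and 3355 lower, against 5079 and 2254 with library totals, 3292 and 1028 with the control-like sequences and 3472 and 4721 after median centring.

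Total RNA was lower late than early in 3 of the 6 genes, where 13.0% of 23949 genes were called lower. MOS had 247 and 500 normalized counts late against 3280 to 5968 early (log2 −3.60 ± 0.38, adjusted p 0.000932), 25th from the bottom of all genes. fbxo43 had 574 and 675 against 2988 to 6160 (−2.75 ± 0.33, adjusted p 0.00148), and CDK1 had 1317 and 1358 against 4046 to 4800 (−1.71 ± 0.20, adjusted p 0.00133). CCNB1 (−0.15 ± 0.22, adjusted p 0.608), CCNB2 (−0.58 ± 0.29, adjusted p 0.152) and WEE2 (−1.003 ± 0.52, adjusted p 0.167) each had the 3.5 hpf value in the early range and the 5.3 hpf value below it. Without 3.5 hpf, CCNB2 (adjusted p 0.00144) and WEE2 (adjusted p 0.000296) passed as well. Without 5.3 hpf the change was 0.09 for both CCNB1 and WEE2. Over all genes 5380 were called higher and 3120 lower, and with median centring 4067 and 6589, where CCNB2 and WEE2 also passed (adjusted p 0.023 and 0.0497).

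Whether bound RNA was lost beyond total RNA was tested as the late over early change of the bound over unfractionated ratio. It fell in the same 4 genes as the bound over unbound ratio, fbxo43 (−3.81 ± 0.52), CCNB2 (−2.19 ± 0.34), CCNB1 (−1.92 ± 0.33) and WEE2 (−1.89 ± 0.27), with adjusted p 0.0246 to 0.0283, where 2.89% of 24750 genes were called lower. Both ratios share the bound libraries. The change was −0.53 ± 0.90 for MOS and 0.99 ± 0.68 for CDK1, which did not pass (adjusted p 0.795 and 0.465). None of the 4 passed without the egg, 1-cell, 16-cell or 3.5 hpf libraries in turn (adjusted p up to 0.133), though all 4 stayed at an unadjusted p below 0.05 and at most 2 genes of the whole table passed in any of these fits. The call for CCNB1 ended with library totals (adjusted p 0.0535), and that for CCNB2 in edgeR's quasi-likelihood test on its transcript (adjusted p 0.165). Over all genes 160 were called higher and 716 lower, against 142 and 87 with library totals, 151 and 323 with median centring and 168 and 215 with TMM.

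**Figure D4:**
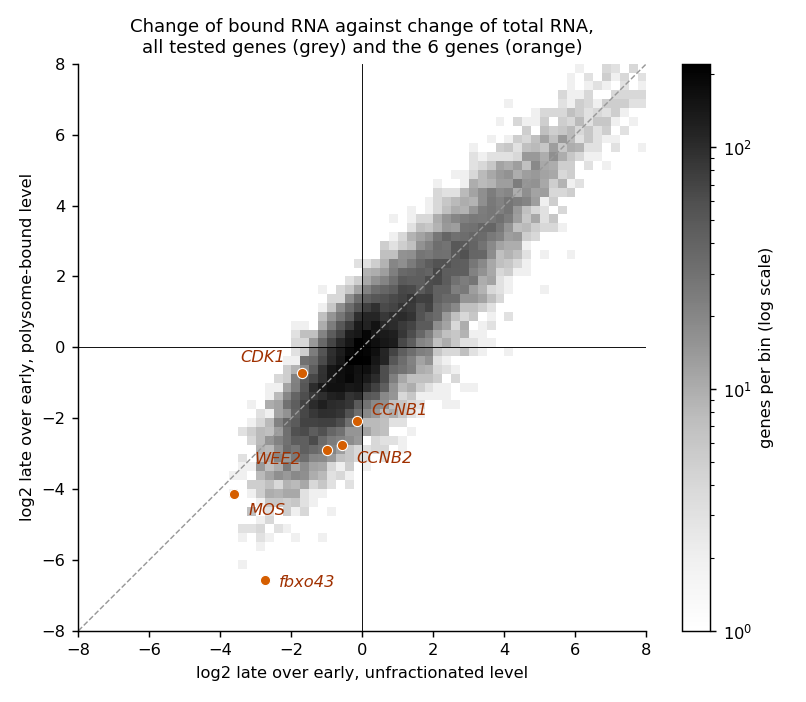
Log2 change of late over early stages in the polysome-bound level against that in the unfractionated level, for all genes tested in both as a grey density and for the 6 genes as labelled points, with axes ending at 8 on either side. CCNB1, CCNB2, WEE2 and fbxo43 lie well below the dashed diagonal of equal change, and CDK1 lies above it.

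Across all 6 stages, bound and unbound RNA were compared with stage as a block. CCNB1 was higher in the bound fraction (6.74-fold, log2 2.75 ± 0.49, adjusted p 0.0043) and so was CCNB2 (3.79-fold, 1.92 ± 0.53, adjusted p 0.0311), 2 of 6 genes against 8.46% of 24893. MOS was lower (2.75-fold, −1.46 ± 0.42, adjusted p 0.0362), 1 of 6 against 7.10%. CDK1 (−1.23 ± 0.39, adjusted p 0.0532), WEE2 (1.45 ± 0.48, adjusted p 0.0656) and fbxo43 (1.60 ± 0.92, adjusted p 0.279) did not pass. WEE2 passed after median centring (adjusted p 0.0234) and TMM (adjusted p 0.0475), and CDK1 with library totals (adjusted p 0.00799), the control-like sequences (adjusted p 0.000167) and a pseudocount of 10 (adjusted p 0.0485). These averages run over all 6 stages, and fbxo43, with the largest error, had a ratio of 30.2 in the egg and 0.171 at 5.3 hpf. The CCNB1 call held in all 13 alternatives, while those for CCNB2 and MOS each ended in 7 of 14, edgeR's quasi-likelihood test on the matched transcript included (adjusted p 0.113 for CCNB2 and 0.17 for MOS). Over all genes 2106 were called higher and 1768 lower, against 1119 and 6028 with library totals, and 3268 and 949 after median centring. The control-like sequences gave 161 higher and 12589 lower, with the median of all genes at −1.35 and WEE2 at −0.03.

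The counts for the lists of related genes stand against these shares of all genes. Late over early, 22.5% were called higher and 13.0% lower in unfractionated RNA, and 2.36% gained and 5.39% lost polysome association. In the comparison of fractions 8.46% were enriched and 7.10% depleted on polysomes. Of 28 other regulators of CDK1, 10 were lower and 2 higher late than early in unfractionated RNA (median log2 −0.44, against 0.23 for all genes), 1 gained and 3 lost polysome association (median −0.25, against −0.51), and 3 were enriched and 3 depleted on polysomes (median −0.06, against −0.01). WEE1, the somatic counterpart of WEE2, had 4809 and 14954 normalized counts late against 1067 to 1915 early and rose 5.65-fold (log2 2.50 ± 0.46, adjusted p 0.0068) while WEE2 had its lowest value at 5.3 hpf. aurka, a mitotic kinase, was 2.82-fold lower (−1.49 ± 0.23, adjusted p 0.00352), as were the phosphatase subunit PPP2R2D (2.85-fold) and CCNH, the cyclin partner of CDK7 (2.57-fold). The bound over unbound ratio fell late for the Greatwall kinase gene mastl (−3.20 ± 0.37, adjusted p 0.00526), the cyclin CCNA1 (−3.22 ± 0.49, adjusted p 0.00825) and the CDK1 phosphatase cdc25b (−1.64 ± 0.42, adjusted p 0.0446), and rose for another B-type cyclin, ccnb3 (1.97 ± 0.48, adjusted p 0.0378). In the comparison of fractions the smallest p belonged to the cyclin CCNA2, higher in the bound RNA (5.92-fold, 2.57 ± 0.35, adjusted p 0.0013), followed by the phosphatase subunit PPP2CA (2.49-fold lower), the inhibitory kinase pkmyt1 (2.88-fold lower) and the transcription factor FOXM1 (2.23-fold lower).

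The APC/C, which the fbxo43 protein blocks, was taken with its activators and inhibitors. The list also holds other ubiquitin pathway genes that are not APC/C subunits, SKP1 and fbxw11a among them. Of 30 genes tested, 8 were lower and 1 higher late than early in unfractionated RNA (median −0.36, against 0.23 for all genes), 2 gained and 2 lost polysome association (median −0.07, against −0.51), and 4 were enriched and 2 depleted on polysomes (median 0.18, against −0.01). CDC20, the activator that opens anaphase, was 4.28-fold higher in the bound fraction (2.10 ± 0.46, adjusted p 0.0113) and lost polysome association late (−2.52 ± 0.48, adjusted p 0.0155). The other activator, FZR1, was 2.52-fold lower in the bound fraction (−1.34 ± 0.34, adjusted p 0.0216), while SKP1 (5.19-fold) and the subunit ANAPC11 (3.13-fold) were higher. Total RNA was lower late for fbxw11a, an F-box gene (4.05-fold), the checkpoint kinase gene bub1ba (3.05-fold) and the subunits ANAPC15 (3.38-fold) and ANAPC13 (4.17-fold). The core subunits ANAPC7 (2.19 ± 0.34, adjusted p 0.00889) and ANAPC2 (2.15 ± 0.36, adjusted p 0.0104) gained polysome association late, and the ubiquitin-conjugating enzyme gene ube2d1b lost it (−2.84 ± 0.48, adjusted p 0.0104).

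The list for the Mos and MAP kinase branch is not limited to genes downstream of Mos, and holds the kinase genes BRAF and ARAF. Of its 19 genes, 3 were lower and 2 higher late in unfractionated RNA (median −0.19, against 0.23). None of the 19 gained and 4 lost polysome association (median −0.54, against −0.51), and 4 were enriched and none depleted on polysomes (median 0.37, against −0.01). Among those that lost it were the phosphatase genes ppp1caa (−2.20 ± 0.37, adjusted p 0.0104) and ppp1cab (−1.75 ± 0.37, adjusted p 0.0221). These 2 phosphatase genes (3.11-fold and 5.04-fold), PPP1CA (4.23-fold) and the 14-3-3 gene ywhaz (2.55-fold) were the 4 that were higher in the bound fraction. In total RNA the MAP kinase target RPS6KA1 (3.16-fold) and the kinase gene BRAF (2.56-fold) were lower late, ARAF was 3.08-fold higher, and DUSP6, a phosphatase of MAP kinases, had 2740 and 8982 normalized counts late against 11 to 20 early (337-fold). Of 20 genes that carry the calcium signal of fertilization, 9 were enriched and none depleted on polysomes (median 0.74, against −0.01), among them the calmodulin gene CALM2 (4.89-fold, 2.29 ± 0.30, adjusted p 0.001), calm2a (4.69-fold), calm1a (2.73-fold) and the kinase gene camk2g1 (2.74-fold, 1.45 ± 0.31, adjusted p 0.00967). Late against early, 1 of these 20 was higher (CALM2, 2.10-fold) and 3 lower (calm3a, PPP3CC and PPP3R1, 1.67-fold to 2.24-fold) in unfractionated RNA (median −0.05, against 0.23). CALM2 alone lost polysome association (−1.44 ± 0.36, adjusted p 0.04; median of the 20 genes −0.89, against −0.51). Reads shared between the near-identical calmodulin genes may be split among them.

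The list counts moved with the scaling of the libraries. With the control-like sequences, 161 of all 24893 genes were enriched and 12589 depleted on polysomes. No gene of the 4 lists was enriched. Depleted were 20 of 28 CDK1 regulators, 18 of 30 APC/C genes, 9 of 19 MAP kinase genes and 8 of 20 calcium genes. On that scale the median change of the ratio was above 0 in each list, as it was for all genes (0.50). In the lists 1 CDK1 regulator and 2 APC/C genes gained polysome association and no gene lost it, against 315 and 29 of 24893 genes. With library totals, 4 of the 20 calcium genes were enriched and 6 depleted, against 1119 and 6028 of 24893 genes. The median of the list stayed at 0.18, against −0.54 for all genes. The loss of polysome association by CALM2 did not pass with library totals, median centring, TMM or the control-like sequences. After median centring, total RNA was lower late in 6589 of all 23949 genes. In the lists it was lower in 13 of 28 CDK1 regulators, 17 of 30 APC/C genes, 8 of 19 MAP kinase genes and 7 of 20 calcium genes.

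Likeness of the profiles was read as Pearson's r of log2 normalized counts over the 18 libraries, a description in which all genes share the libraries and the jump at 3.5 hpf. Among the 6 genes the closest pair was CCNB1 with CCNB2 (r = 0.919), followed by CCNB2 with WEE2 (0.899) and fbxo43 with WEE2 (0.823). MOS was closest to CDK1 (0.772), and CDK1 ran against CCNB1 (−0.376) and CCNB2 (−0.263). Among 8322 genes with a mean of at least 1000 normalized counts, the closest to MOS were ABHD2, PGP and shrprbck1r (0.977 to 0.98). The closest to fbxo43 were AP1M2, CPEB1 and ZFAND4 (0.966 to 0.975), of which CPEB1 encodes a protein that regulates the polyadenylation of maternal mRNAs. CCNB1 was closest to CNOT8, CCNC and RRAS (0.975 to 0.983), CCNB2 to PARPBP, sec24c and CCNA1 (0.982 to 0.983), CDK1 to RDH10, CDK7 and polr1e (0.97 to 0.984), and WEE2 to RASSF3, STAM and AMBRA1 (0.983 to 0.986). CNOT8 belongs to a deadenylase complex, and CDK7 is the kinase that activates CDK1.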

How the data were processed

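RNA from polysomes, from outside them and from whole pooled embryos was sequenced at 6 stages, 1 library each, and assigned reads numbered 30.67 M to 71.65 M. Per the submitters' processing notes, tools included STAR 2.4.2a, GSNAP, Cufflinks 2.2.1, Salmon 0.6.0 and DESeq2 with the build GRCz10. The gene table holds normalized counts, a signal the authors scaled per library, for 27015 genes. The files per library hold the authors' estimated counts and TPM for 52340 transcripts. No column of the gene table was left unused.

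Since the gene values are normalized, limma 3.58.1 (R 4.3.3) was fitted to log2(normalized count + 1) over all genes with at least 10 in at least 2 libraries of the fit, and a call needs a Benjamini-Hochberg adjusted p below 0.05. Fold changes are on that scale and understate low genes. With 1 library per condition, the p-values measure an effect against the spread between stages. Fractions were compared with stage as a block, and late against early within or between fractions. No map of transcripts to genes was used, so MOS, CCNB2 and CDK1 were each matched to the 1 transcript whose values agreed within 1% in all libraries, and their estimated counts were rounded to whole numbers for edgeR 4.0.16. The fits were run on simulated data with no change between libraries other than planted effects and noise. This checked the mean size of the estimates and cannot test the p-values of these data. Alternatives changed the pseudocount to 10, dropped the filter, rescaled the libraries (totals, median centring, TMM, 4 control-like entries), left out each stage, dropped the block, formed ratios first, or used edgeR.

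The 6 genes and the pathway lists were chosen with earlier results of these data known. Named beside the 6 genes are, for each, the 3 most correlated genes with a mean of at least 1000 normalized counts and, from each list, up to 4 genes with the smallest p in the comparisons of bound with unbound, late with early unfractionated RNA, and late with early ratio. Some results that this rule would name are not reported here.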

Additional observations from a re-analysis of the deposited data

Results flagged for a closer look

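The late over early change differed between RNA fractions in 4 genes, by a test of the difference itself (limma, Benjamini-Hochberg adjusted over all genes). Bound minus unbound, the log2 difference was −6.14 for fbxo43, −3.11 for CCNB2, −2.97 for WEE2 and −2.83 for CCNB1. Bound minus unfractionated, it was −3.81 for fbxo43, −2.19 for CCNB2, −1.92 for CCNB1 and −1.89 for WEE2. Both comparisons share the bound libraries. No group had enough libraries of 1 kind at 1 stage to look for a library apart from its replicates.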

How the results depend on the processing

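With 1 library per condition no call has a replicate check. Over all results, 610 values stayed the same under an alternative and 97 moved. For a test, the same means an unchanged direction and side of the threshold, and for a count a similar size. Another 52 no longer passed, 16 newly passed and 7 changed sign. Stage was the block wherever fractions were compared. The scalings of the pathway lists were chosen after seeing the data.

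Of the 6 genes, bound over unbound called 2 higher and 1 lower, against 2106 and 1768 of 24893 genes. The counts were 1 and 2 with library totals, against 1119 and 6028 of all genes. With the control-like entries they were 1 and 2, against 161 and 12589. The lower count was 2 with a pseudocount of 10, against 1932 of all genes. It was 0 with median centring (limma, 2 lower at an unadjusted p below 0.05), against 949. With no stage block it was 0 (1 at an unadjusted p below 0.05), against 395. The higher count was 3 with median centring, against 3268, and 3 with TMM, against 2337. Leaving out a stage gave 1 to 3 higher and 0 to 1 lower, against 1132 to 2546 and 699 to 1961 of all genes. Late over early, 3 genes were lower in unfractionated RNA, 5 with median centring, and 3 to 5 when 1 stage was left out. The ratio of bound to unbound was lower in 4 genes, in 1 with the control-like entries, in 0 when formed per stage first (4 at an unadjusted p below 0.05), and in 0 to 4 with a stage left out. The ratio of bound to unfractionated was lower in 4 genes, in 3 with library totals, in 0 when formed per stage first, and in 0 to 4 with a stage left out. Of all genes, 3120 of 23949 were lower in unfractionated RNA, and 6589 with median centring. For the ratio to unbound, 1342 of 24893 were lower, and 29 with the control-like entries. For the ratio to unfractionated, 716 of 24750 were lower, and 87 with library totals. Formed per stage first, both ratios had 0 genes called in the whole table. Without the egg, 1-cell or 16-cell libraries in turn, at most 2 of all genes passed in the ratio to unfractionated. The ratio was lost before total RNA in 5 genes, against 26.5% of 13114 genes, and in 2 with the control-like entries, against 3.18%.

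Signs changed for WEE2 bound over unbound (−0.03) and for MOS in the late over early ratio to unbound (0.36), both with the control-like entries. When 1 stage was left out, the late over early log2 change ranged from −0.40 (without 3.5 hpf) to 0.09 (without 5.3 hpf) for unfractionated CCNB1, and from −2.10 to 0.09 (without the same stages) for WEE2. It ranged from −0.18 (without 5.3 hpf) to 2.19 (without 3.5 hpf) for CDK1 in the ratio to unbound, from −1.72 (without 5.3 hpf) to 0.29 (without 3.5 hpf) for bound CDK1, and from −1.19 (without 128 cells) to 0.11 (without the egg) for MOS in the ratio to unfractionated. The causes were not tested. The control-like entries had 5 to 59 reads in the unfractionated libraries, so scaling to them was not run there. In the order of losses with these entries, total RNA therefore kept the authors' scaling.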
